A study of Mus musculus with 4 samples.

Results

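The genes of DNA replication and S phase were followed across AML12 cells and mouse liver treated with control or *Ulk1* siRNA. The set is a list of 50 genes named by symbol, and 48 of them were measured among the 22180 genes of the array that had a probe set of their own. The only probe set of *Rfc4* and that of *Ccne2* also carry the symbol of another gene, so no value is given for these 2 members. The members fall into the roles of origin licensing, helicase activation, the sliding clamp and its loader, polymerases and primase, Okazaki fragment joining, single-strand DNA binding, nucleotide supply, chromatin assembly and S phase entry. Gene expression was measured on 4 GeneChip Mouse Gene 2.0 ST arrays, 1 per condition, so that no difference below carries an error, a test or a p-value, and how precise a value is depends on 1 array. Values are log2 expression as deposited, and every difference is *Ulk1* siRNA minus control within one system.

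AML12 is a mouse hepatocyte line of the CD-1 strain from a male, established from an animal carrying a human TGF alpha transgene, and control and knockdown cells alike grew in medium with dexamethasone. Cells received a negative control siRNA or *Ulk1* siRNA at 10 nM for 72 h. The livers came from males of 6 weeks by the labels, which give the strain as C57N1/6N where the methods name C57BL/6N. Mice received 40 ug of negative or *Ulk1* siRNA by hydrodynamic tail-vein injection every 24 h for 3 days, and the *Ulk1* siRNA was the same product as in the cells. The liver arrays read all cell types of the organ together. The methods describe a pool of 4 samples without saying how pools were assigned to arrays, so the spread between cultures or between animals cannot be read from these values.

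*Ulk1*, the kinase targeted by the siRNA, was at 7.47 on the AML12 control array and 7.06 on the AML12 siRNA array, a log2 difference of -0.40. In liver it was at 8.73 and 8.46, a log2 difference of -0.27. By RNA the knockdown thus left 75.6% of the control signal in cells and 83% in liver. The paper shows the knockdown by immunoblot of the ULK1 protein in both systems, a measure that the arrays do not give. All 10 hepatocyte markers lay at or above the array median in control liver, against 5 of 10 in control AML12 cells. Below it there were *Cyp2e1*, *Cps1*, *G6pc*, *Tat* and *Serpina1a*. The summed linear signal of all 10 hepatocyte markers was 6693 on the AML12 control array and 9793 on the AML12 siRNA array. On the log2 scale *Alb* differed by 0.87 and *Ttr* by 0.68, but *Apob* by 0.03. On the same arrays the 5 measured biliary markers summed to 1868 and 1405. *Krt19* was at -1.03 and *Krt7* at -0.91, while *Sox9* was above control at 0.27. Of the 7 measured erythroid markers, 2 lay at or above the median in control AML12 cells and 1 with siRNA. These were the transferrin receptor gene *Tfrc*, at -1.32, and *Slc4a1*, at -0.19 and above the median in control only. The rest, under the median on both AML12 arrays, lay on both sides of control. In liver the 8 stellate cell markers, 7 of them at or above the median on both arrays, summed to 1452 in control and 802 with *Ulk1* siRNA. *Reln* was at -1.46 and *Lrat* at -1.39 on the log2 scale, while *Ngfr* was above control at 0.24. *Des*, under the median on both arrays, was at 0.11. The 8 Kupffer cell and macrophage markers summed to 1358 and 1562. The part of these shifts in the differences described below was not tested.

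DNA replication starts at origins that are licensed in G1, when the origin recognition complex, *Cdc6* and *Cdt1* load the MCM helicase ring onto DNA. In S phase *Cdc45* and the GINS complex switch the ring on, primase and the polymerases copy the strands around the sliding clamp *Pcna*, and ribonucleotide reductase, thymidylate synthase and thymidine kinase supply the nucleotides. Many of these genes are transcribed under E2F factors at the G1 to S transition. Hepatocytes of adult liver are largely quiescent, whereas a cultured hepatocyte line divides. Cell division was not measured in the livers here, which came from males of 6 weeks after hydrodynamic injection.

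In AML12 cells the replication genes were lower as a group with *Ulk1* siRNA, by modest amounts. A gene was counted when the higher of its values in a comparison reached the median of all genes on its own array, which 47 of the 48 measured members did in AML12 cells, the exception being *Orc1*. Of these, 43 were below their control value and 4 were above it, where 47% of the 11437 genes past this filter were below. The median log2 difference of the members was -0.34, or 79% of the control signal, against 0.02 for all genes. One member, *Rrm2*, was lower by at least 1 log2, a size met by 1.23% of all genes, and 0 members were higher by that much, beside 0.332% of all genes. At a difference of 1.5-fold, 15 members were lower, beside 3.55% of all genes, and 0 were higher, beside 2.25% of all genes. Put against the spread of all genes, 18 members lay below the 5th percentile of -0.50 and 0 above the 95th percentile of 0.45.

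**Figure D1:**
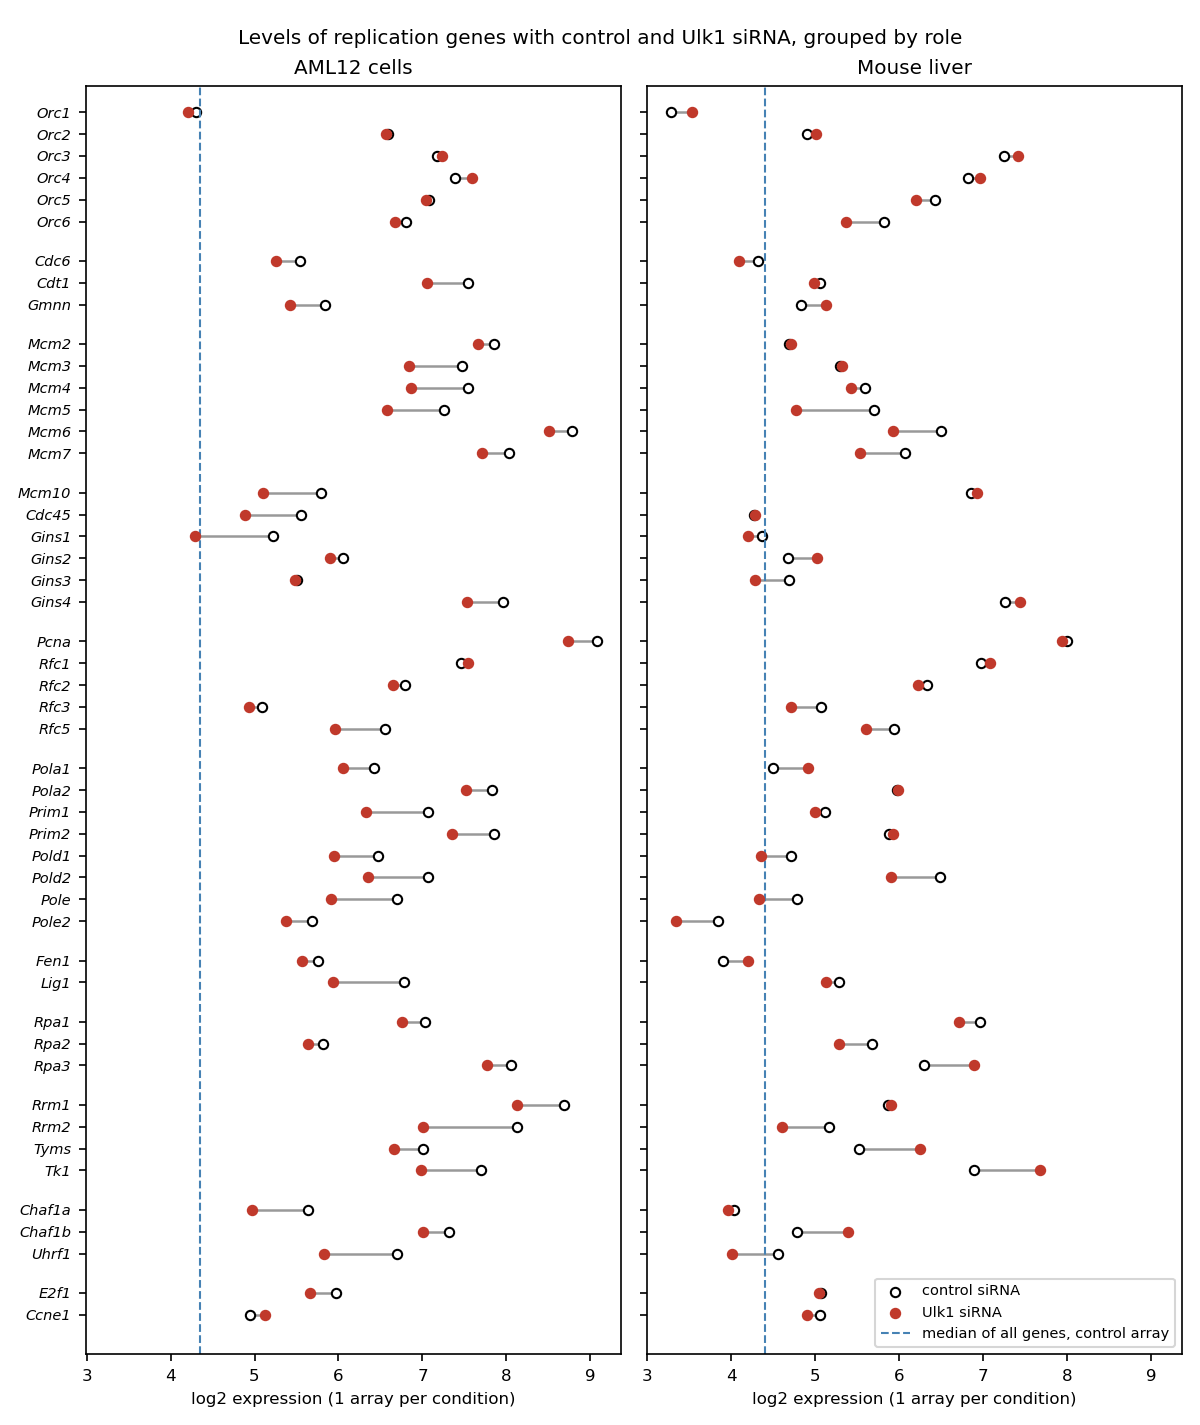
Log2 expression of the 48 measured replication genes (horizontal axis) on the AML12 arrays (left) and the liver arrays (right), 1 row per gene grouped by role, with open circles for control siRNA, filled circles for *Ulk1* siRNA and a dashed line at the median of all genes on the control array. In AML12 cells most filled circles sit to the left of their open circle, and in liver they lie on both sides and closer to the dashed line.

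In liver the same genes showed no common direction. There 41 of 48 members passed the level filter, *Orc1*, *Cdc6*, *Cdc45*, *Gins1*, *Pole2*, *Fen1* and *Chaf1a* remaining below the array median on both arrays. Of the 41, 23 were below control and 18 above, where 54.2% of the 11602 genes past the filter were below. Their median log2 difference was -0.08 against -0.03 for all genes. Members lower or higher by 1 log2 numbered 0 each, beside 0.655% and 0.509% of all genes. At 1.5-fold, 1 member was lower (*Mcm5*), beside 3.77% of all genes, and 4 were higher (*Tk1*, *Tyms*, *Chaf1b* and *Rpa3*), beside 3.03% of all genes. A second probe set of *Rpa3* gave 0.01, so its place among these 4 depends on the probe set. Below the 5th percentile of all genes, at -0.53, were 6 members, and above the 95th, at 0.48, were 4.

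Motif letters in the promoters set the replication genes beside the mitosis genes, the list most like them. Windows from 250 bases before to 50 bases after each annotated start were taken from RefSeq (GRCm38.p6), and 41 of the 50 members were matched, through 50 windows. The E2F site was searched as TTTCGCGC, TTTCCCGC, TTTGGCGC or TTTGCCGC on both strands, and 15 of the members' windows held at least 1 match, which is 30%, against 2.26% of all 32851 windows and 3.7% of the 27 windows of mitosis genes. The CHR element, TTTGAA on both strands, had the opposite distribution, being in 10% of the members' windows, 74.1% of the mitosis windows and 17.9% of all windows. The CCAAT box, CCAAT on both strands, was in 56% of the members' windows, 66.7% of the mitosis windows and 37.4% of all. Among roles, E2F letters were found for 4 of 5 matched genes of the MCM ring and for 0 of 4 genes of nucleotide supply. Over all genes with a window the share was 2.6%. Other spellings of the site were not searched, so a window without a match is not shown to lack a site. Of 21 E2F matches in the members' windows, which can overlap each other, 13 lay wholly before the start.

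**Figure D2:**
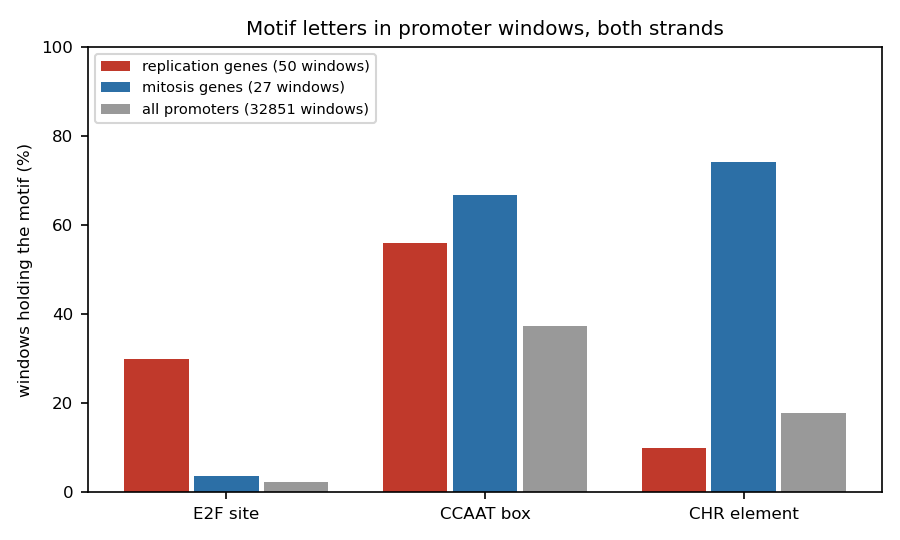
Share of promoter windows (percent, vertical axis) that hold at least 1 match to the letters of the E2F site, the CCAAT box or the CHR element on either strand, for replication genes, mitosis genes and all promoters. E2F letters stand highest in replication genes at 30%, and CHR letters stand highest in mitosis genes at 74.1%.

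The stretches below are from the 6 members with an E2F match whose log2 difference in AML12 cells was lowest, shown so that the letters can be read in their surroundings. Each is written 5′ to 3′ in the direction of the gene, with the E2F letters in capitals and the gene's strand after the coordinates.
Uhrf1 (chr17:56304092-56304171, plus): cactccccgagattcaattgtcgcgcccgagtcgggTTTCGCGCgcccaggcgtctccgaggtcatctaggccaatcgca
Lig1 (chr7:13278841-13278870, plus): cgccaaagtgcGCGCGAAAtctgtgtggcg
Mcm5 (chr8:75109320-75109399, plus): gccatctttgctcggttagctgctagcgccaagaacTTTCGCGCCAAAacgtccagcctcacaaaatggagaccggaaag
Mcm3 (chr1:20820275-20820304, minus): aaacttccgtgGCGGGAAAacttgggaagt
Pold1 (chr7:44548766-44548795, minus): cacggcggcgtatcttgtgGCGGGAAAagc
Cdt1 (chr8:122568035-122568064, plus): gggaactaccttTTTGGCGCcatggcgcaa
In *Mcm5* the capitals hold 2 overlapping matches, 1 on each strand, and the first begins 153 bases before the start. In *Uhrf1* the match begins 185 bases before the start. *Uhrf1* and *Lig1* also have windows at other annotated starts, and those held no match. The matches of *Lig1*, *Mcm3*, *Pold1* and *Cdt1* lie past the start, beginning at transcribed base 27, 20, 40 and 33, and *Mcm3* has a second match at base 39 outside the printed stretch. A match is a description of letters and says nothing of whether a factor is bound there.

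Within origin licensing, the origin recognition complex differed little in AML12 cells and the MCM ring was lower throughout. The 5 subunits of the complex past the filter, which together mark the origins, had a median log2 difference of -0.03 and ranged from -0.13 for *Orc6* to 0.20 for *Orc4*. *Orc2* was at 6.59 in control and 6.56 with siRNA, *Orc3* at 7.17 and 7.23, and *Orc5* at 7.08 and 7.04. In liver their median was 0.12, with *Orc6* lowest at -0.44, from 5.82 to 5.37. *Orc1*, under the filter in both systems, was at 4.31 and 4.21 in AML12 cells and at 3.28 and 3.54 in liver.

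The 3 genes that load the ring or restrain its loading were below control in AML12 cells. *Cdt1*, which brings the MCM ring to the origin and whose stretch with TTTGGCGC is printed above, was at 7.54 in control cells and 7.05 with siRNA, a log2 difference of -0.49. *Gmnn*, the geminin that holds *Cdt1* inactive after licensing, was at 5.84 and 5.43, a log2 difference of -0.41. *Cdc6*, the ATPase that loads the ring together with *Cdt1*, was at 5.54 and 5.25. Activator and inhibitor of licensing thus differed in the same direction. In liver *Cdt1* was at 5.06 and 4.98, and *Gmnn* was higher with siRNA, at 5.13 against 4.83.

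All 6 genes of the MCM ring, the helicase that opens the double strand, were below control in AML12 cells, with a median log2 difference of -0.48. They split into 3 with a difference over 1.5-fold and 3 with a smaller one. *Mcm4* was at 7.55 in control and 6.87 with siRNA, a difference of -0.68. *Mcm5* was at 7.25 and 6.58, a difference of -0.67. *Mcm3* was at 7.47 and 6.84, a difference of -0.63. The other 3 genes, at -0.32 for *Mcm7*, -0.27 for *Mcm6* and -0.20 for *Mcm2*, encode subunits of the same ring, so its subunits did not differ by equal amounts on these arrays.

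In liver the MCM ring was the role group with the lowest median, -0.35, and it held the largest difference below control among the members. *Mcm5* was at 5.70 in control liver and 4.77 with *Ulk1* siRNA, a log2 difference of -0.93 or 52.5% of the control signal. *Mcm6* was at 6.50 and 5.93, and *Mcm7* at 6.07 and 5.54. *Mcm2*, *Mcm3* and *Mcm4* differed by 0.02, 0.02 and -0.17. Of the 12 members that passed the filter in both systems and were lower by 1.5-fold in AML12 cells, *Mcm5* was the only one also lower by 1.5-fold in liver. Over all genes, 15% of the 280 that were lower by 1.5-fold in AML12 cells were also lower by 1.5-fold in liver, so that 1 of 12 is not a result about the members.

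Among the helicase activators, AML12 cells had a median log2 difference of -0.55 over 6 genes, all below control. The median was -0.43 over 5 genes where both arrays had to reach the array median, which *Gins1* did not with siRNA. *Gins1*, a subunit of the GINS complex that joins the ring when origins fire, was at 5.21 in control and 4.29 with siRNA, a difference of -0.92. *Mcm10*, which is needed for the ring to start unwinding, was at 5.79 and 5.10, and *Cdc45*, the partner of GINS, at 5.56 and 4.89. The 4 GINS genes encode subunits of the same complex but spread widely, from -0.92 for *Gins1* through -0.43 for *Gins4* and -0.16 for *Gins2* to -0.03 for *Gins3*. In liver the group's median was 0.12 over 4 genes, with *Gins2* at 0.34 and *Gins3* at -0.42 on either side of 0. *Gins3*, at 4.28 with siRNA, was under that array's median of 4.42 and passed the filter through its control value alone.

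The sliding clamp and its loader had smaller differences in AML12 cells, with a median of -0.16 over 5 genes. *Pcna*, the ring that tethers polymerases to DNA, was at 9.08 in control and 8.74 with siRNA, a log2 difference of -0.34. *Rfc5*, a small subunit of the clamp loader, was at 6.55 and 5.96, a difference of -0.60. *Rfc1*, the large subunit, was at 7.46 and 7.54, slightly above control. *Rfc2* and *Rfc3* differed by -0.15 and -0.16. In liver *Pcna* was at 8.0 and 7.94, and *Rfc3* and *Rfc5* were lower by 0.36 and 0.34 on the log2 scale.

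All 8 genes of the polymerases and primase were below control in AML12 cells, with a median log2 difference of -0.51. *Pole*, the catalytic subunit of the leading-strand polymerase epsilon, was at 6.69 in control and 5.92 with siRNA, a difference of -0.78, while a second probe set with values of 2.69 and 2.66 gave -0.03 and the mean of both gave -0.40. *Prim1*, the catalytic subunit of primase, was at 7.06 and 6.33, a difference of -0.73. *Pold2*, an accessory subunit of the lagging-strand polymerase delta, was at 7.07 and 6.35, a difference of -0.72. The remaining 5 were nearer to control, from -0.52 for *Pold1*, the catalytic subunit of polymerase delta, to -0.31 for *Pola2*, with *Prim2* at -0.50, *Pola1* at -0.36 and *Pole2* at -0.32. In liver the median was -0.12 over 7 genes, -0.24 over all 8 without the filter and 0.02 where both arrays had to reach the median, and the group pointed both ways. *Pold2* was at 6.48 and 5.91, below control. *Pole* was at 4.78 and 4.33 on the chosen probe set, a difference of -0.45, but the second probe set gave 0.31 and the mean of both -0.07. *Pola1*, the catalytic subunit of polymerase alpha, was at 4.50 in control liver and 4.91 with siRNA, a difference of 0.42.

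Of the genes that finish the lagging strand, *Lig1*, the ligase that seals Okazaki fragments, was at 6.78 in AML12 control cells and 5.94 with siRNA, a log2 difference of -0.85. *Fen1*, the flap nuclease that trims the fragments before ligation, was at 5.76 and 5.56. The difference of *Lig1* was thus the larger on the chosen probe sets, while another probe set of *Fen1* gave -0.51. *Lig1* in liver was at 5.29 and 5.13. The single-strand DNA binding complex RPA had differences of -0.27 for *Rpa1*, -0.18 for *Rpa2* and -0.28 for *Rpa3* in AML12 cells. In liver *Rpa3* was at 6.30 and 6.90, a difference of 0.60, but a second probe set of the same gene gave 0.01, so that the value depends on the probe set. *Rpa1* and *Rpa2* in liver differed by -0.25 and -0.39.

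Nucleotide supply held the lowest single value in AML12 cells and pointed the other way in liver for *Tk1* and *Tyms*. *Rrm2*, the regulated small subunit of ribonucleotide reductase, was at 8.13 in AML12 control cells and 7.0 with siRNA, a log2 difference of -1.13 or 45.7% of the control signal. *Rrm1*, the large subunit, was at 8.69 and 8.12, a difference of -0.57. A second probe set of *Rrm2*, with low values of 3.70 and 3.06, gave -0.64. Both probe sets of *Rrm2* and the single one of *Rrm1* thus lay below control. *Tk1*, the thymidine kinase of the salvage route, was at 7.70 and 6.98, a difference of -0.72. *Tyms*, the thymidylate synthase of the de novo route, was at 7.01 and 6.66, a difference of -0.35.

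In liver the same 4 genes had a median log2 difference of 0.38, or 0.73 over 3 genes with the mean of each gene's probe sets. *Tk1* was at 6.89 in control liver and 7.68 with *Ulk1* siRNA, a difference of 0.79 or 173% of the control signal. *Tyms* was at 5.52 and 6.25, a difference of 0.73. *Rrm2* was at 5.17 and 4.61, below control, and *Rrm1* at 5.87 and 5.90. The 4 genes therefore did not share a direction in liver, whereas all 4 were below control in AML12 cells.

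Genes that restore chromatin behind the fork were also below control in AML12 cells, with a median of -0.67 over 3 genes. *Uhrf1*, which recruits the maintenance DNA methyltransferase to newly copied DNA, was at 6.69 in control and 5.83 with siRNA, a log2 difference of -0.87. *Chaf1a*, the large subunit of the CAF-1 histone chaperone, was at 5.64 and 4.97, a difference of -0.67. *Chaf1b*, another subunit of CAF-1, was at 7.32 and 7.01, a difference of -0.31. In liver *Uhrf1* was lower, at 4.01 against 4.56, and *Chaf1b* was higher, at 5.39 against 4.79. The regulators of S phase entry were nearer to control. *E2f1*, a transcription factor of the E2F family, was at 5.97 and 5.67 in AML12 cells and at 5.07 and 5.05 in liver. *Ccne1*, the cyclin E that activates *Cdk2*, was at 4.95 and 5.13 in AML12 cells, above control, and at 5.06 and 4.90 in liver.

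**Figure D3:**
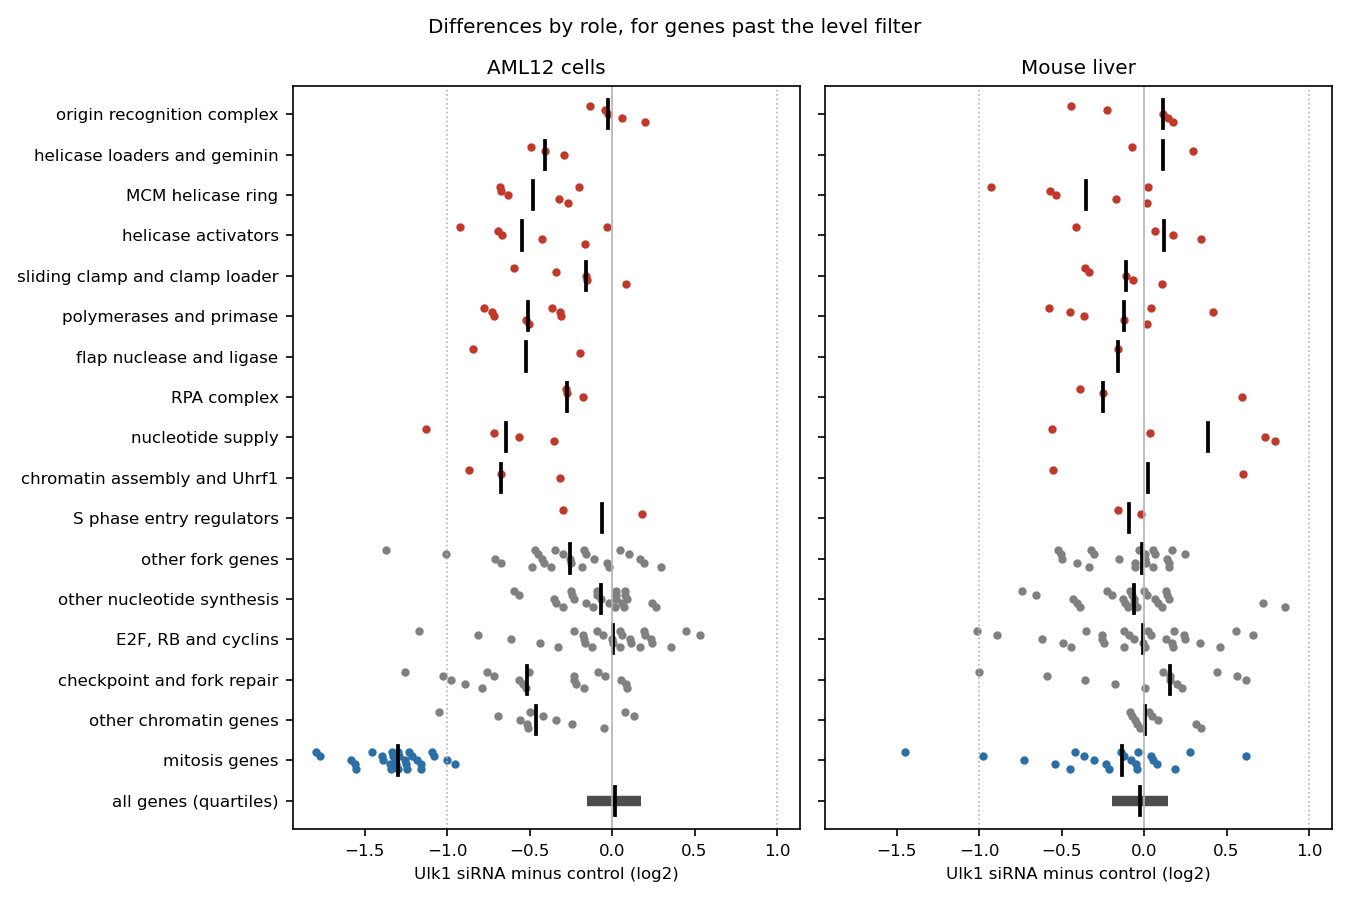
*Ulk1* siRNA minus control (log2, horizontal axis) in AML12 cells (left) and liver (right) for each gene past the level filter, by role, with replication genes in red, other genes of the pathway in grey, mitosis genes in blue, a black line at each median and a dark bar over the quartiles of all genes. In AML12 cells the MCM ring, helicase activators, polymerases, nucleotide supply and chromatin genes have medians between -0.48 and -0.67, the origin recognition complex is at -0.03 and the mitosis genes are at -1.30.

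Mitosis genes differed by more than replication genes in AML12 cells. All 29 measured genes of the mitosis list were below control there, beside 47% of all genes past the filter, and their median was -1.30. Lower by 1 log2 or more were 28 of them, beside 1.23% of all genes. *Cdc25c*, the phosphatase that starts mitosis, was at 6.59 in control and 4.80 with siRNA, a log2 difference of -1.80. *Pttg1*, the securin gene, had the highest value of the list at -0.96, and only 1 replication gene, *Rrm2*, lay at or below that. In liver the mitosis list had a median of -0.13 over 22 genes, of which 16 were below control, beside 54.2% of all genes. There *Aurkb*, a mitotic kinase, was at 5.95 and 4.50, a difference of -1.45. Fewer cells in S phase or mitosis and less RNA per cell cannot be told apart on arrays of bulk RNA.

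The other genes of the pathway varied with their role. Of 25 further fork, firing and polymerase genes past the filter in AML12 cells, 20 were below control, with a median of -0.26. Among all genes past the filter there, 47% were below control. *Top2a*, the topoisomerase of late S phase and mitosis, was at 8.68 in control and 7.31 with siRNA, a log2 difference of -1.37, and *Ticrr*, which helps fire origins, was at 5.94 and 4.93, a difference of -1.01. *Cdc7* and *Dbf4*, the kinase that fires origins and its activating subunit, differed by -0.71 and -0.67. With siRNA *Cdc7* was at 4.13, under the array median of 4.36, so it passed the filter through its control value alone. Of 20 checkpoint and fork repair genes, 17 were below control, with a median of -0.51, which was -0.23 where both arrays had to reach the array median. Among them *Fancd2*, a Fanconi anaemia protein that protects stalled forks, was at 6.76 and 5.51, a difference of -1.26. Chromatin genes coupled to replication had a median of -0.46 over 12 genes, with the histone chaperone *Asf1b* at -1.05.

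Metabolic and regulatory genes around S phase stayed nearer to 0 in AML12 cells, where 47% of all genes past the filter were below control. Of 25 other nucleotide synthesis genes, 14 were below control, with a median of -0.07, and *Shmt2*, a serine hydroxymethyltransferase of mitochondria, was lowest at -0.59. Of 27 genes for E2F and RB proteins, cyclins and their inhibitors, 13 were below control, with a median of 0.00. *Ccna2*, the cyclin A of S phase and mitosis, was at 8.74 and 7.56, a log2 difference of -1.17. *E2f8*, a repressor of the E2F family, was lower by 0.81 on the log2 scale. *Ccnd2*, a G1 cyclin, and *Cdkn1a*, the p21 inhibitor of cyclin-dependent kinases, were above control at 0.54 and 0.45, while the G1 cyclin *Ccnd1* was at -0.61.

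In liver these lists had medians from -0.06 for nucleotide synthesis to 0.16 for checkpoint and repair. Genes lower by 1 log2 were *Ccnd1*, at 7.78 in control and 6.77 with siRNA, and *Chek1*, a checkpoint kinase, at 5.46 and 4.46. *Cdkn1a* was lower by 0.89 on the log2 scale in liver and above control in AML12 cells. *Impdh1*, an enzyme of guanine nucleotide synthesis, and *Rrm2b*, the alternative small subunit of ribonucleotide reductase, were above control in liver by 0.86 and 0.72. In the same list *Mthfd2* and *Ctps* were below control, at -0.74 and -0.66. At 1.5-fold, 2 genes of that list were higher and 2 lower, beside 3.03% and 3.77% of all genes. Of its 25 genes 15 were below control, beside 54.2% of all genes.

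On the control arrays the replication genes stood at higher log2 levels in AML12 cells than in liver. The value was higher in AML12 cells for 45 of 48 members, where 53.7% of all genes were higher, and by at least 1 log2 for 30 of them, where 12.6% of all genes were. The median difference, AML12 control minus liver control, was 1.44 over the members and 0.05 over all genes. Whether the 4 arrays were normalized together is not stated, so the rank of each gene among all genes of its own array was set beside the level, and 42 of 48 members ranked higher in AML12 cells, as did 56.1% of all genes. *Mcm2* went from percentile 54.3 in liver to 87.2 in AML12 cells, *Rrm2* from 60.2 to 89.5 and *Cdt1* from 58.8 to 84.2. *Mcm10* was the clearest exception, at percentile 78.5 in liver and 64.8 in AML12 cells, and the origin gene *Orc3* was at 82.5 and 79.9.

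**Figure D4:**
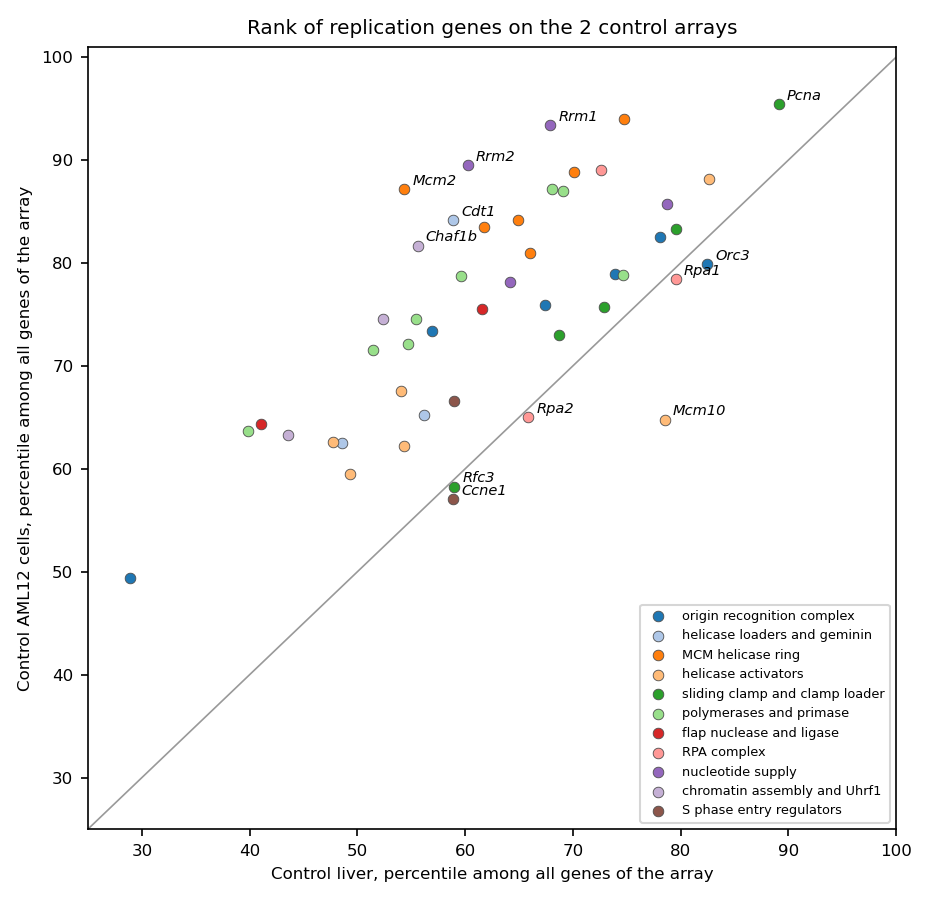
Percentile of each of the 48 replication genes among all genes of its own array, in control liver (horizontal axis) and control AML12 cells (vertical axis), coloured by role, with the line of equal rank. Most points lie above the line, 42 of 48, and *Mcm10* lies furthest below it.

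The higher level in AML12 cells was present with *Ulk1* siRNA too. The median over members of AML12 with *Ulk1* siRNA minus control liver was 0.93, against 0.05 over all genes. Of the members, 41 of 48 were higher in the siRNA-treated cells than in control liver, as were 54.2% of all genes.

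Side by side, most members were below control in AML12 cells, and in liver they lay on both sides of control. Of the 41 members past the filter in both, 22 were below control in both, 15 were below in AML12 cells and above in liver, 1 was above in AML12 cells and below in liver, and 3 were above in both. Among all 10335 genes past both filters, 26% were below control in both. For the other classes no share of all genes was taken. Because most members were below control in AML12 cells, these counts do not show whether members followed each other across the systems. Between the AML12 and the liver differences of the 41 members, Pearson's r was 0.22 and Spearman's rho was 0.21, given as a description over genes that share the same 4 arrays and are not independent replicates. On the chosen probe sets *Rrm2*, *Uhrf1*, *Pole*, *Pold2* and *Mcm5* lay below control in both systems, with *Uhrf1* at -0.87 in cells and -0.55 in liver. The second probe set of *Pole* was above control in liver. With siRNA in liver, *Uhrf1* at 4.01 and *Pole* at 4.33 were under the array median of 4.42. These genes passed the filter there through their control value alone. *Tk1*, *Tyms*, *Chaf1b* and *Pola1* were below control in cells and above it in liver by at least 0.3 log2 each way, 4 of the 41 members, where 3.16% of all genes past both filters differed in opposite directions by that much.

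**Figure D5:**
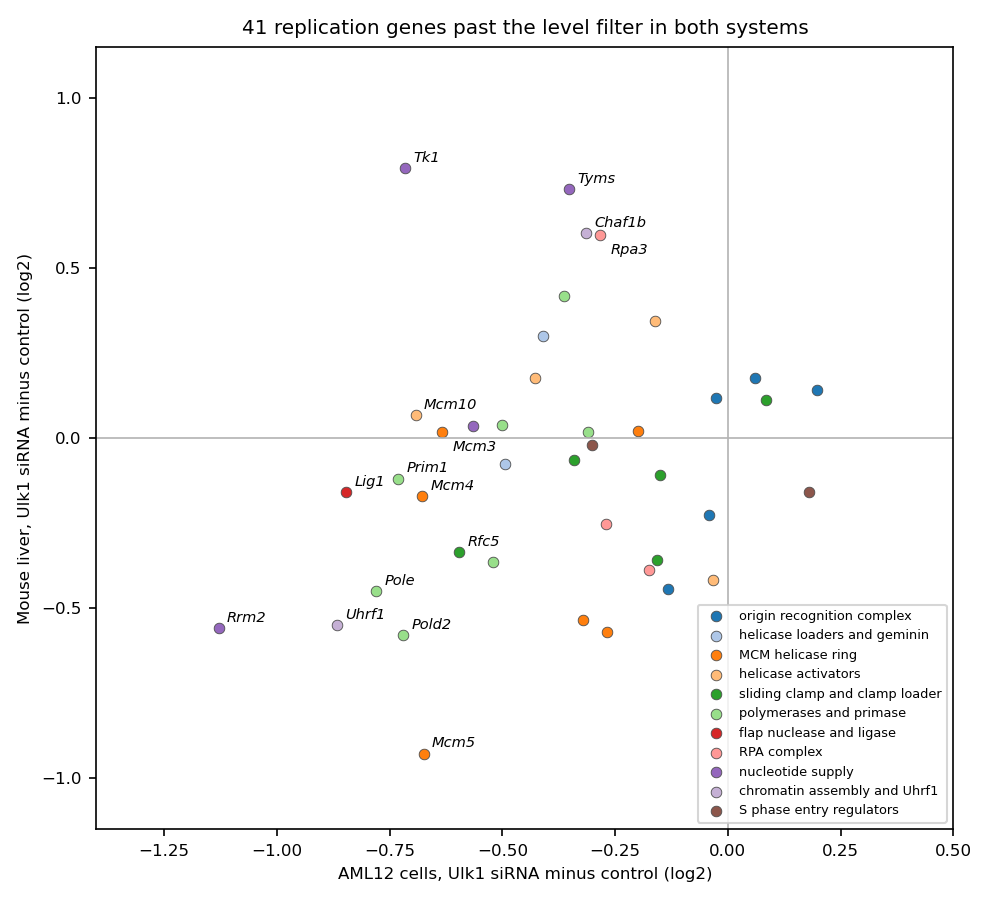
*Ulk1* siRNA minus control (log2) in AML12 cells (horizontal axis) and in liver (vertical axis) for the 41 replication genes past the level filter in both systems, coloured by role, with genes beyond 1.5-fold in either system named. On the chosen probe sets *Rrm2*, *Uhrf1*, *Pole*, *Pold2* and *Mcm5* sit at the lower left, and *Tk1*, *Tyms*, *Chaf1b* and *Rpa3* at the upper left. Second probe sets of *Pole* and *Rpa3* gave other values in liver.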

How the data were processed

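The authors hybridised total RNA of 4 conditions to GeneChip Mouse Gene 2.0 ST arrays and deposited log2 expression values for 41345 probe sets. RMA is named in the submitters' processing notes, and quantile normalization in Partek Genomics Suite 6.6 is named in the methods. Values were used as deposited. Probe sets with 1 gene symbol in the array annotation (23521) were collapsed to 22180 genes, a gene with several being represented by the probe set of highest mean. The level filter asked that the higher of the 2 values of a comparison reach the median of all genes on its own array, which was 4.35 to 4.42. Differences are *Ulk1* siRNA minus control, with thresholds of 1 log2 and 1.5-fold. With 1 array per condition no test was made.

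The members, role groups, pathway, mitosis and marker lists were chosen with earlier results of these data known. All members and *Ulk1* could be named, and of each other list up to 4 genes in each direction with the largest differences, with those past 1 log2. Promoter windows were RefSeq's (GRCm38.p6), and the printed stretches are those of the 6 members with an E2F match and the lowest AML12 differences. Alternatives were the 1.5-fold threshold, list means instead of medians, averaging a gene's probe sets, keeping probe sets with several symbols, dropping the filter or asking it of both arrays, median centring, quantile normalization of each pair and loess on mean level (span 0.3). The comparison and summary steps were tested on simulated data. Software was matplotlib 3.10.9, statsmodels 0.14.6, scipy 1.17.1, pandas 2.3.3, numpy 2.4.6 and Python 3.11.15.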

Additional observations from a re-analysis of the deposited data

Results flagged for a closer look

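Among the replication genes, 4 members past the filter in both systems differed by over 0.3 log2 in opposite directions in cells and in liver, as did 3.16% of all genes past both filters. The log2 difference was -0.36 in AML12 cells and 0.42 in liver for *Pola1*, -0.35 and 0.73 for *Tyms*, -0.72 and 0.79 for *Tk1*, and -0.31 and 0.60 for *Chaf1b*. The median of the nucleotide supply genes was -0.64 in AML12 cells and 0.38 in liver. With 1 array per condition, none of these differences between the systems was tested.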

How the results depend on the processing

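The median log2 difference of the replication genes lay between -0.33 and -0.40 in AML12 cells and between -0.02 and -0.09 in liver over all alternatives. Of the members, 0 changed sign in AML12 cells, and 2 did in liver, *Cdc45* and *E2f1*, both within 0.02 of 0 as reported. The count lower by 1 log2 in AML12 cells was 1, and it was 0 with the mean of a gene's probe sets, which averages the second, lower probe set of *Rrm2*, and 15 at 1.5-fold. In liver the 1.5-fold threshold gave 1 lower and 4 higher. The median AML12 minus liver control level of 1.44 became 1.26 with the mean of probe sets, 1.34 with probe sets of several symbols kept and 1.28 after quantile normalization of the 2 control arrays. The cause of these last shifts was not tested. No paired analysis was possible because each condition has 1 array. Many members lay near the array median in liver, where signal over background limits what a difference shows, and pooling hides the spread between animals and cultures.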
